A study of Saccharomyces cerevisiae with 20 samples.

Results

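SPAAC capture with the m7G caps left in place was compared here with standard RNA-seq in wild-type budding yeast (*Saccharomyces cerevisiae*). The comparison takes 6 of the 20 samples of the study, chosen by their labels: 3 WT SPAAC libraries and 3 WT RNA-seq libraries. WT cells were of the BY4741 background, a laboratory strain of mating type a with his3, leu2, met15 and ura3 mutations that all of these libraries share. The methods give growth in rich medium with glucose/glycerol. The methods describe the replicates as independent biological ones. The methods name polyA RNA as the input of SPAAC and do not state that of the standard RNA-seq, while the labels say total RNA for both. The question is which transcripts are recovered and which are lost when ADPRC and click capture are applied without prior removal of m7G caps. For comparison, 3 WT libraries treated with Dcs1 first (NADcapPro) and 3 SPAAC and 3 RNA-seq libraries of *xrn1-H41A* cells were used. The mutant carries a substitution in Xrn1, the main cytoplasmic exoribonuclease, that is described as lacking removal of NAD caps while RNA decay is kept.

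Most eukaryotic mRNAs carry an m7G cap at the 5′ end, which protects them from exonucleases and recruits the translation initiation machinery. A smaller number of transcripts begin instead with the metabolite NAD, whose adenosine can serve as the first nucleotide, and such transcripts can be removed by deNADding enzymes. ADPRC is an ADP-ribosyl cyclase that puts an azide in the place of the nicotinamide in an NAD cap. The azide is then joined to a strained alkyne carrying biotin without copper, and the RNA is pulled down on streptavidin beads. Dcs1 is the scavenger decapping enzyme that cleaves m7G caps, so NADcapPro and SPAAC differ in that step.

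The coding sequences of 3 short mRNAs that were among the most raised by SPAAC are given first, with the start and stop codon in capitals. MFA1, the precursor of the a-factor mating pheromone, lies on the plus strand of chromosome IV at chrIV:1385176-1385286. KTI11, a small zinc protein needed for diphthamide and for the modification of tRNA wobble uridines, is at chrII:89978-90226 on the plus strand. CWP2, a major mannoprotein of the cell wall, is at chrXI:259253-259531 on the plus strand. All coordinates are of assembly R64, and the sequences are those of RefSeq.
MFA1: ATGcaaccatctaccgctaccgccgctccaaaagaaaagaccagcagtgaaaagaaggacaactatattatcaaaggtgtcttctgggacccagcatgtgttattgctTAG
KTI11: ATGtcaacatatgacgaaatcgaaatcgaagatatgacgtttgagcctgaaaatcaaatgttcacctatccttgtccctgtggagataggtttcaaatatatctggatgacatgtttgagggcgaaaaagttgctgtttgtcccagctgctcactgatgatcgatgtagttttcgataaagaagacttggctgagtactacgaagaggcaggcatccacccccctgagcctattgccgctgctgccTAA
CWP2: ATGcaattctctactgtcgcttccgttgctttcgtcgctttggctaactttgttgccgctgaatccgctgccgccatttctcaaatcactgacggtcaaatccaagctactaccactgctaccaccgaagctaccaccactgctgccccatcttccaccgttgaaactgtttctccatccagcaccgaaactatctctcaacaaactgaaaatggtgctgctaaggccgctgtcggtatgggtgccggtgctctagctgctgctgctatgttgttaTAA

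Box C/D snoRNAs, which guide methylation of rRNA and lack a polyA tail when mature, were among the most depleted short transcripts, and 3 of them follow. The capitals mark TGATGA within the first 20 bases and CTGA within the last 20, the letters of the C and D boxes. SNR128 is transcribed from the minus strand at chrX:139566-139691 and SNR66 from the plus strand at chrXIV:586090-586175. SNR63 lies on the minus strand at chrIV:323217-323471.
SNR128: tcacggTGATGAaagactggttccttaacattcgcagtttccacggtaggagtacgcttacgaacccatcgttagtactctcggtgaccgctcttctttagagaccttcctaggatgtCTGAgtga
SNR66: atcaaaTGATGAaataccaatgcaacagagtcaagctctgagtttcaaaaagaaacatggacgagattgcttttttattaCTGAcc
SNR63: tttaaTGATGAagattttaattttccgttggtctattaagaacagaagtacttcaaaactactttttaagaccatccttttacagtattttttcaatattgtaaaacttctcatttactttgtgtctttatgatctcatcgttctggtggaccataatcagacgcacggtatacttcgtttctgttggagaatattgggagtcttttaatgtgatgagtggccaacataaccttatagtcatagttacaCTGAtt

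The RNA-seq libraries held 13038320 to 29409788 counts and the SPAAC libraries 32811692 to 33816015. At these depths 3 counts correspond to 0.0887 to 0.23 CPM (counts scaled to the library total). The 10 most abundant transcripts took 12.4% to 12.5% of the counts in RNA-seq and 18.7% to 19.4% in SPAAC, and the mean transcript length per count was 1550 to 1572 nt against 1063 to 1069 nt. LEU2, URA3 and MET17 (the MET15 gene) were at 0 to 4 counts in each of the 6 libraries. HIS3, of which this background lacks only a part, had 1239 to 5592 counts and was higher in SPAAC (1.02 on the log2 scale). STE2, the alpha-factor receptor of a cells, was at 543, 529 and 508 CPM in RNA-seq and 708, 720.4 and 718 in SPAAC, while STE3, the receptor of alpha cells, was at 7.29, 6.08 and 6.98 and 9.39, 8.77 and 9.29. Not every mating type gene split in this way. ASG7, a gene of a cells, was at 11.7, 11.4 and 11.8 CPM in RNA-seq. SAG1, a gene of alpha cells, was above it at 29.3, 30.7 and 30.0 CPM. Replicates were counted separately, since they differed by more than sampling noise, with a chi-square of 3.79 to 13.1 per transcript.

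Transcripts higher in SPAAC were mostly short and abundant, and those lower were mostly long. Of 5979 transcripts tested, 285 (4.77%) were higher in SPAAC by 2-fold or more with an adjusted p not above 0.01, and 950 (15.9%) were lower. The 285 had a median length of 531 nt and a median RNA-seq level of 96.5 TPM (a level corrected for length and depth), against 1191 nt and 25.8 TPM over all transcripts tested. The 950 had a median length of 2986.5 nt and a median of 16.3 TPM. The 1495 transcripts with the highest RNA-seq TPM held 171 of the higher and 96 of the lower ones, and the 1495 with the lowest TPM held 29 and 354. Median lengths in these groups were 690 and 1629 nt. With the trend on transcript length removed from each library, the first held 57 higher and 43 lower and the second 51 and 78.

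Values of the 3 SPAAC libraries lay outside the range of the 3 RNA-seq libraries for all 285 and for 949 of the 950. The same held for 5144 of all 5979 transcripts tested and for 3910 of the 4744 not called, so such separation does not set the calls apart. Changes are given as log2 fold changes with their standard error (SE), n = 3 per group, from edgeR's quasi-likelihood test with Benjamini-Hochberg adjustment over all transcripts tested, and CPM is normalised by TMM, which assumes that most transcripts do not change. Without the fold threshold 4751 of the 5979 passed the same adjusted p, so that assumption is uncertain here. Scaled by library totals alone, the median of all transcripts moved by -0.31 on the log2 scale and the split became 71 higher and 1349 lower, so the directions below are relative to the bulk of transcripts. Scaled in this way 20 of the named higher transcripts were no longer called, at 0.69 to 0.99: ANB1, ATP18, ENO2, ERG6, HHF1, HHT2, HIS3, HSP10, MED7, MF(ALPHA)1, MRPL51, PRE2, PRE6, RPL10, RPO26, SEH1, SWS2, TIF35, TIM10 and VMA4. In the 142 higher (2.37%) and 207 lower (3.46%) calls left once the trend on transcript length was removed from each library, 87 of the 285 and 166 of the 950 were kept. Of the 950, 308 turned above 0, and of the 285 none fell below 0.

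**Figure D1:**
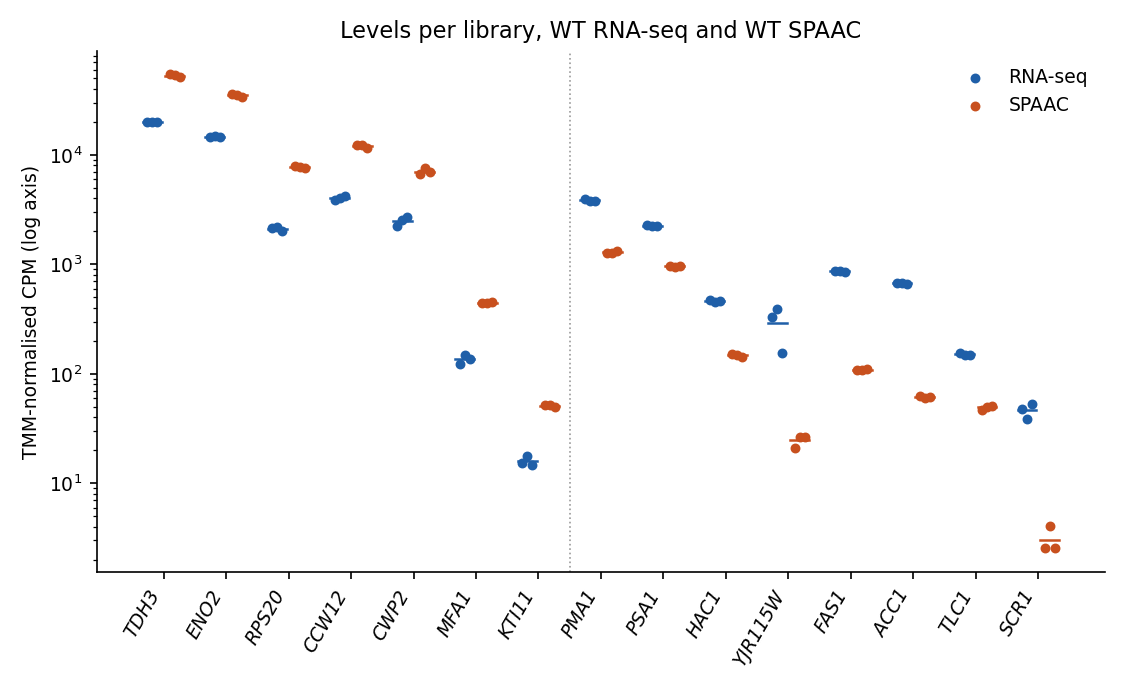
TMM-normalised CPM on a log axis for 7 transcripts that were higher in SPAAC (left of the dotted line) and 8 that were lower (right), with 1 point per library and a line at the mean of 3. The 3 SPAAC points of each transcript lie apart from the 3 RNA-seq points, from TDH3 at 50978 CPM or more in SPAAC to SCR1 at 4.03 CPM or less.

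By number of calls the cytosolic ribosome led the lists, with 33 of its 138 genes higher in SPAAC, whereas histones had the higher share and median. RPS20, a protein of the small ribosomal subunit (chrVIII:75412-75777, plus strand), was at 2133, 2193 and 2024 CPM in the 3 RNA-seq libraries and at 7942, 7744 and 7645 in the 3 SPAAC libraries. Every SPAAC library was thus above every RNA-seq library, with a log2 fold change of 1.88 (SE 0.03, adjusted p = 3.6e-16), or 3.67-fold. RPS14A, another small subunit protein with an intron, rose from 1722, 1768 and 1724 to 6154, 6013 and 5828 CPM, by 1.79 (SE 0.03, adjusted p = 1.8e-16). RPL10, which completes the large subunit, went from 3115, 3120.3 and 2979.8 to 7175, 6918 and 6880.2 CPM. The groups did not overlap for RPS14A or RPL10, and RPL10 had a log2 fold change of 1.19. RPL38, a large subunit protein, rose by 1.33.

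Of 57 small subunit genes 14 were higher and 0 lower, with a median of 0.70, and of 81 large subunit genes 19 were higher and 1 was lower, with a median of 0.64. Those higher made up 24.6% and 23.5%, beside 4.77% of all transcripts. The median over all transcripts was 0.02. Once the length trend was removed 7 and 3 were higher and 1 and 1 lower, with medians of 0.40 and 0.37 beside 0.15 over all transcripts. RPS20 and RPS14A were still called, at 1.53 and 1.43, whereas RPL10 no longer was (0.86). Many ribosomal proteins come from duplicated genes, and 8 of the small and 14 of the large subunit genes had under 50% of their 31-mers (the word size taken for kallisto) to themselves, so the split between copies is uncertain. The 0 of this and of the other lists, 19 counts in all, was also 0 by DESeq2's Wald test, with 0 to 10 members per list in that direction at an unadjusted p under 0.05 and no fold threshold. Such a p was common, with 5130 of all 5979 transcripts in either direction. Genes with an intron made up 37 of the 285 higher transcripts (13%), against 265 of all 5979 (4.43%), and 22 of the 37 were ribosomal protein genes.

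Ribosomal protein genes did not move as a block. RPL24B, RPS26B and RPL29 (chosen after their values were seen) were lower in every SPAAC library than in every RNA-seq library without reaching 2-fold. RPL24B was at 1203, 1252 and 1253 CPM in RNA-seq and 650.0, 682 and 677 in SPAAC (log2 fold change -0.88, SE 0.03), and RPS26B at 921, 984 and 958 and 602, 604 and 593 (-0.67, SE 0.03). RPL29, with 625, 669.6 and 701 against 419, 456 and 441 CPM, stood at -0.60 (SE 0.04). Relative to transcripts of like length RPL24B (-1.24) and RPS26B (-1.01) were called lower. The member called lower, RPL41B, is the shortest of the list at 78 nt and had 18.8% of its 31-mers to itself, so its log2 fold change of -1.03 is uncertain.

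Glycolytic genes lay on both sides. TDH3, the main glyceraldehyde-3-phosphate dehydrogenase and an enzyme that uses NAD, was the most abundant of the named transcripts, at 19971, 19997 and 20106 CPM in RNA-seq and 54275, 53768 and 50978 in SPAAC. It rose by 1.4 (SE 0.02, adjusted p = 5.6e-16) and ENO2, an enolase, from 14610.1, 14806 and 14638 to 36219.5, 35590.1 and 33471 CPM, by 1.26 (SE 0.03). TDH3 and ENO2 shared part of their sequence with their isozymes, having 56.8% and 61.2% of their 31-mers to themselves, and TDH2 (1.38, 49.4% own, chosen after its values were seen) is uncertain for the same reason. PFK2 and PFK1, the subunits of phosphofructokinase, which commits sugar to glycolysis, went the other way. PFK2 was at 710.0, 697 and 690.4 CPM in RNA-seq and 204, 201 and 200.3 in SPAAC (-1.79, SE 0.03) and PFK1 fell by 1.5 on the log2 scale. Of the 25 genes of glycolysis and fermentation 3 were higher and 3 lower, with a median of 0.29. That is 12% in each direction, beside 4.77% higher and 15.9% lower over all transcripts, so the lower share is not above that of all transcripts. Relative to transcripts of like length TDH3 (1.25), ENO2 (1.31) and TDH2 (1.22) kept their calls and PFK2 (-0.54) and PFK1 (-0.19) did not. Scaled by library totals, ENO2 stood at 0.94 and was not called.

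The named short mRNAs included those of 2 cell wall mannoproteins, of a pheromone precursor and of an uncharacterized protein. CCW12, a mannoprotein of newly formed cell wall (chrXII:369697-370098, minus strand), was at 3893, 4001 and 4207 CPM in RNA-seq and 12274, 12266 and 11614 in SPAAC. CWP2 was at 2227, 2519 and 2681 and 6656, 7513 and 6907 CPM, and MFA1 at 123, 147 and 137 and 442, 439 and 451. No library of one assay reached the range of the other, and the log2 fold changes were 1.58 (SE 0.03), 1.5 (SE 0.06) and 1.70 (SE 0.05). MFA2, the second a-factor gene, was not called (0.83, SE 0.03). In contrast the a-factor exporter STE6, an ABC transporter, was lower, at 298, 306 and 289 CPM in RNA-seq and 115, 112 and 111 in SPAAC (-1.4, SE 0.04). YDR524C-B, an uncharacterized small protein, went from 3024, 3065 and 2845 to 7352, 7610.2 and 7307 CPM (1.32, SE 0.03). CCW12, CWP2, MFA1 and YDR524C-B stayed called with the length trend removed, at 1.23, 1.23, 1.89 and 1.2, while STE6 turned to 0.41. Of the other mating type genes, AGA2 (0.86), ASG7 (0.65) and BAR1 (0.33) of a cells and MF(ALPHA)2 (-0.65) of alpha cells were not called between the assays, and MF(ALPHA)1, at 2.13 CPM or less, was called higher (1.12, SE 0.26). SAG1, the alpha-agglutinin of alpha cells, was at 29.3, 30.7 and 30.0 CPM in RNA-seq and 10.2, 10.1 and 10.3 in SPAAC and was called lower (-1.56, SE 0.07).

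Some less abundant short mRNAs rose as well. KTI11 was at 15.3, 17.8 and 14.7 CPM in RNA-seq and 51.4, 52.4 and 49.9 in SPAAC, a log2 fold change of 1.68 (SE 0.06). DPI8 went from 8.39, 7.97 and 8.86 to 24.5, 29.4 and 24.2 CPM (1.63, SE 0.09) and SME1, a core protein of spliceosomal snRNPs, from 32.9, 33 and 35.7 to 103, 99.4 and 93.8 CPM (1.53, SE 0.05). SPAAC libraries were above RNA-seq libraries throughout for these 3 genes. WWM1 (1.49) and SNU13, a protein shared by the spliceosome and box C/D snoRNPs (1.41), were also higher. KTI11, WWM1 and MRPL51 each overlap a gene on the other strand, and since the counting is not stated to use strand their reads cannot be told from those of the partner.

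Nuclear genes for mitochondrial proteins were raised in part. Of 79 mitochondrial ribosomal protein genes 8 were higher (10.1%) and 0 lower (median 0.51). Of 26 genes of the TIM and TOM import complexes 5 were higher (19.2%) and 0 lower (median 0.49). Of 42 nuclear genes of the respiratory chain and ATP synthase 6 were higher (14.3%) and 1 lower (median 0.48). Over all transcripts 4.77% were higher, but the median lengths of the lists are 654, 565.5 and 387 nt. Of all transcripts of over 500 and up to 1000 nt 7.98% were higher and 1.64% lower (median 0.42). Of those of over 300 and up to 500 nt 86 of 613 were higher and 31 lower (median 0.49). The ribosomal and respiratory lists thus lay near transcripts of like length, which was not tested. TOM20, the receptor that recognises mitochondrial presequences, was at 118, 113 and 113 CPM in RNA-seq and 306, 294 and 301 in SPAAC (1.39, SE 0.04). ATP20, a small membrane subunit of ATP synthase, was at 27.4, 31.3 and 31.9 and 80.2, 84.6 and 88.8 CPM (1.47, SE 0.05), and both genes separated the assays in every library. ATP1, subunit alpha in the catalytic head of the same enzyme, was the respiratory gene that fell, from 640.3, 623 and 607 to 311, 295 and 312 CPM (-1.03, SE 0.04). TIM10, a chaperone of the intermembrane space, rose by 1.10 and the ribosomal proteins SWS2 and MRPL51 by 1.23 and 1.16. With the length trend removed 1 mitochondrial ribosomal, 2 import and 4 respiratory genes were higher, among them TOM20 (1.03) and ATP20 (1.13), and ATP1 (-0.71) was no longer called.

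Some histone and redox genes were higher. Of 11 histone genes 3 were higher (27.3%, beside 4.77% of all transcripts) and 0 lower, with 10 of 11 above 0 and a median of 0.72. HTB1, which encodes H2B, was at 614, 618 and 588 CPM in RNA-seq and 1538, 1511 and 1510.2 in SPAAC (1.32, SE 0.03), and HHT2, which encodes H3, rose by 1.21. The gene below 0 was HHF2, 1 of the 2 histone H4 genes. HHF1 (chrII:255373-255684, minus strand) was at 730.4, 789 and 805 CPM in RNA-seq and 1546, 1584 and 1529 in SPAAC, whereas HHF2 (chrXIV:576727-577038, plus strand) was at 784, 814 and 857 and 633, 643 and 642. RNA-seq levels of the pair were thus close to each other, and the SPAAC levels were not (1.00, SE 0.03, against -0.36, SE 0.03). The difference between the copies was not tested, each copy has 59.2% of its 31-mers to itself, and the pair was chosen after its values were seen. The first 150 bases of the coding strands are shown to let the shared stretch be seen, with the 3 bases that differ in capitals, out of 8 differences in the whole 312 bases.
HHF1: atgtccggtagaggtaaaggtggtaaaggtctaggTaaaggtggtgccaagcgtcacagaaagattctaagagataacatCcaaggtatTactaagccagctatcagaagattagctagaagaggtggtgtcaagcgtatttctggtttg
HHF2: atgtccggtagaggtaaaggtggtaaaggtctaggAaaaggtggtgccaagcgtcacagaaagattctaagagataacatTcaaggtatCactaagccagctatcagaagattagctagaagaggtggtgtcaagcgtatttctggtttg

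Of 27 redox defence genes 4 were higher (14.8%, beside 4.77% of all transcripts) and 0 lower (median 0.59). TSA1, the most abundant thioredoxin peroxidase, was at 1931, 1935 and 1853 CPM in RNA-seq and 4886, 4808 and 4608 in SPAAC, without overlap (1.32, SE 0.03). None of the histone or redox genes was called with the length trend removed, and HTB1 and TSA1 both stood at 0.97. Other small proteins called higher were TIF35, a subunit of the initiation factor eIF3 (1.23), ANB1, an isoform of eIF5A that is best known from cells without oxygen (1.08), RFA3, the smallest subunit of replication protein A (1.35), HSP10, the mitochondrial co-chaperonin (1.04), and ERG6, a sterol methyltransferase (1.03). Of 28 heat shock chaperone genes 2 were higher (7.14%, beside 4.77% of all transcripts) and 1, SSA3, was lower (-1.05).

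**Figure D2:**
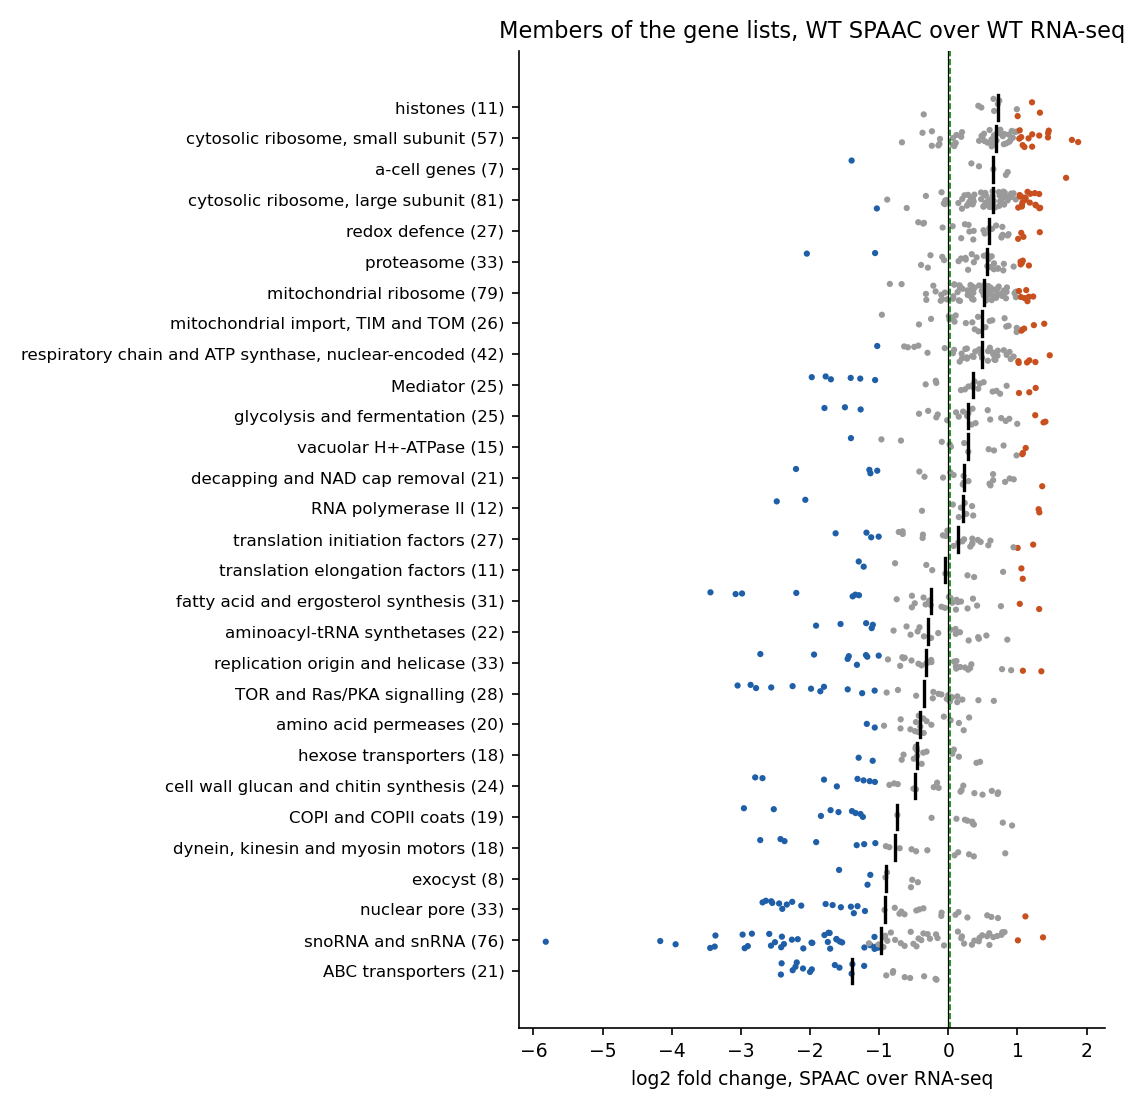
log2 fold change of SPAAC over RNA-seq for each tested member of the gene lists with at least 7 tested members, 10% or more of them called in either direction (number tested in brackets, retrotransposon and other noncoding lists left out). Orange and blue points were called higher and lower and grey points were not called. Black ticks mark each list's median, from 0.72 for histones to -1.4 for ABC transporters, and the dashed green line marks the median of all transcripts, 0.02.

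ACC1, FAS1 and FAS2, genes of fatty acid synthesis, were among the metabolic genes that fell. ACC1, the acetyl-CoA carboxylase that makes malonyl-CoA, was at 676, 671 and 658 CPM in RNA-seq and 63.0, 59.9 and 61.9 in SPAAC. That is 10.9-fold lower, a log2 fold change of -3.44 (SE 0.04, adjusted p = 1.7e-17), with every SPAAC library below every RNA-seq library. FAS2 and FAS1, the subunits of fatty acid synthase, fell alike, from 939.9, 954 and 965 to 112, 114 and 113 CPM for FAS2 (-3.08, SE 0.03) and from 871, 868 and 846 to 108, 108 and 111 CPM for FAS1 (-2.98, SE 0.03). Of the 31 genes of fatty acid and ergosterol synthesis 7 were lower (22.6%) and 2 higher (6.45%), beside 15.9% and 4.77% of all transcripts. The median was -0.25. None of the 31 was called with the length trend removed, and ACC1 stood at -0.67, FAS2 at -0.59 and FAS1 at -0.36. URA2, the first enzyme of pyrimidine synthesis, went from 640.1, 640.4 and 628 to 72.0, 71.4 and 73.7 CPM (-3.14) and from there to -0.38 with the trend removed.

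Some nuclear pore, vesicle coat and motor genes, many of which encode large proteins, were lower, while most members of each list were not called lower. Of 33 nuclear pore genes 16 were lower (48.5%, beside 15.9% of all transcripts) and 1 higher, with a median of -0.92. NUP188, a scaffold protein of the inner ring, was at 196, 195 and 185 CPM in RNA-seq and 28.7, 29.4 and 31.4 in SPAAC (-2.69, SE 0.04), and MLP1, a filament protein of the nuclear basket, at 275, 273 and 267 and 42.7, 44.2 and 43.9 (-2.64). Neither overlapped between the assays. SEH1, a small protein of the outer ring, was the member that rose, from 107, 111 and 110.3 to 239, 238 and 234 CPM (1.11, SE 0.03). Of 19 COPI and COPII coat genes 9 were lower (median -0.74), led by SEC16, which organises endoplasmic reticulum exit sites (-2.96), with COP1, the alpha subunit of coatomer, at -1.70. Of 18 dynein, kinesin and myosin genes 7 were lower (median -0.78), among them MYO1, the myosin of the contractile ring (-2.72), and MYO2, which carries secretory vesicles (-2.37). Of 8 exocyst genes 3 were lower, with SEC3 at -1.58, and CHC1, the clathrin heavy chain, stood at -3.02. With the length trend removed 2 nuclear pore genes and none of the coat, motor or exocyst genes were lower, and NUP188, MLP1, SEC16, COP1, MYO1, MYO2 and CHC1 lay between -0.76 and -0.03.

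ABC transporters had the lowest median of the protein-coding lists drawn, -1.4, with 13 of 21 lower, 0 higher and all 21 below 0. The lower ones made up 61.9%, beside 15.9% of all transcripts. PDR5, the main multidrug exporter, was at 1569.7, 1563 and 1511 CPM in RNA-seq and 521, 517 and 522 in SPAAC, and VMR1, a vacuolar transporter, at 88.5, 80.2 and 82.3 and 15.7, 15 and 16.2. The log2 fold changes were -1.57 (SE 0.03) and -2.41 (SE 0.05). The median coding length of the list is 4236 nt. The list had 2 higher and 0 lower members once the length trend was removed, with a median of 0.41 and PDR5 at 0.52. PMA1, the plasma membrane proton pump and 1 of the most abundant transcripts that fell, went from 3915, 3787 and 3810.4 to 1277, 1280.0 and 1318 CPM (-1.57, SE 0.03, and -0.40 with the trend removed).

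A minority of the genes of growth signalling and of cell wall polymers were lower. Of 28 genes of TOR and Ras/PKA signalling 11 were lower (39.3%, beside 15.9% of all transcripts) and 0 higher (median -0.34). IRA2, a GTPase activator that switches Ras off, was at 131, 131 and 125 CPM in RNA-seq and 16, 14 and 16.8 in SPAAC (-3.05, SE 0.05), and CDC25, the exchange factor that switches Ras on, at 181, 174 and 179.9 and 25.9, 24.7 and 27.3 (-2.78, SE 0.04). Of 24 genes of glucan and chitin synthesis 8 were lower and 0 higher (median -0.49), with the glucan synthases FKS1 and GSC2 at -2.69 and -2.79. FKS1 went from 947, 926 and 912 to 145, 142 and 145 CPM. The named cell wall genes lay on both sides, with the short mannoprotein mRNAs CCW12 and CWP2 higher and the long synthase mRNAs lower. This split by length was not complete. ECM33 (1290 nt, -1.09) and PSA1 (1086 nt, -1.23), described below, were lower too and stayed so with the length trend removed. After removal of the length trend 1 signalling gene was higher and 0 lower, IRA2 was at 0.26, and the glucan and chitin list had 1 higher and 1 lower member.

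Among genes of RNA and DNA metabolism, SEN1, a helicase of transcription termination, fell from 228, 214 and 218 to 22.6, 22.5 and 22.7 CPM (-3.28). Of 127 ribosome biogenesis genes 10 were lower (7.87%, below the 15.9% of all transcripts) and 1 higher (median 0.02). REA1, the longest of all named transcripts at 14733 nt and the ATPase that remodels the pre-ribosome, was at 559.9, 537 and 539.5 CPM in RNA-seq and 97.3, 95.5 and 94.2 in SPAAC (-2.51, SE 0.04), and at 1.56 with the length trend removed, where it was called higher. Of 33 replication genes 8 were lower (24.2%) and 2 higher (6.06%), beside 15.9% and 4.77% of all transcripts. POL2, the leading strand polymerase, stood at -2.72 (0.04 with the trend removed). Of 22 aminoacyl-tRNA synthetase genes 5 were lower (22.7%, beside 15.9% of all transcripts) and 0 higher, with ALA1 at -1.91 and ILS1 at -1.09 (with the trend removed -0.67 and 0.37). Of 27 initiation factor genes 4 were lower (14.8%) and 2 higher (7.41%), close to the 15.9% and 4.77% of all transcripts, among them NIP1 of eIF3 (-1.63) and the polyA-binding protein PAB1 (-1.12, from 983, 1006 and 981 to 459.8, 452 and 459 CPM), neither of which was called with the trend removed (-0.69 and -0.72). Of 11 elongation factor genes 2 were lower and 2 higher (18.2% in each direction, the lower share close to the 15.9% of all transcripts). YEF3, the fungal elongation factor eEF3, stood at -1.30 and, with the trend removed, at 0.11.

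Above 300 nt the median log2 fold change was lower in each longer class of transcripts. The median log2 fold change was 0.49 among 613 transcripts of over 300 and up to 500 nt, 0.42 among 1467 of up to 1000 nt and 0.15 among 1306 of up to 1500 nt. It was -0.24 among 908 of up to 2000 nt, -0.72 among 799 of up to 3000 nt and -1.71 among the 527 longer ones. The shortest class, 359 transcripts of up to 300 nt, stood apart from this order with a median of 0.24, 49 higher and 58 lower (16.2%), and 38 of those 58 were noncoding. No transcript over 2000 nt was called higher. In the 2 longest classes 254 of 799 (31.8%) and 473 of 527 (89.8%) were called lower. The lengths are coding lengths for mRNAs, since 99.2% of the coding transcripts in the reference have a length that is a multiple of 3. The mean transcript length per count, 1550 to 1572 nt in RNA-seq and 1063 to 1069 nt in SPAAC, moved with the assay, and its part in each gene's change beyond the trend removed here was not tested. Handling of long RNA and capture by the cap differ between the assays together and cannot be told apart in these 6 libraries.

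**Figure D3:**
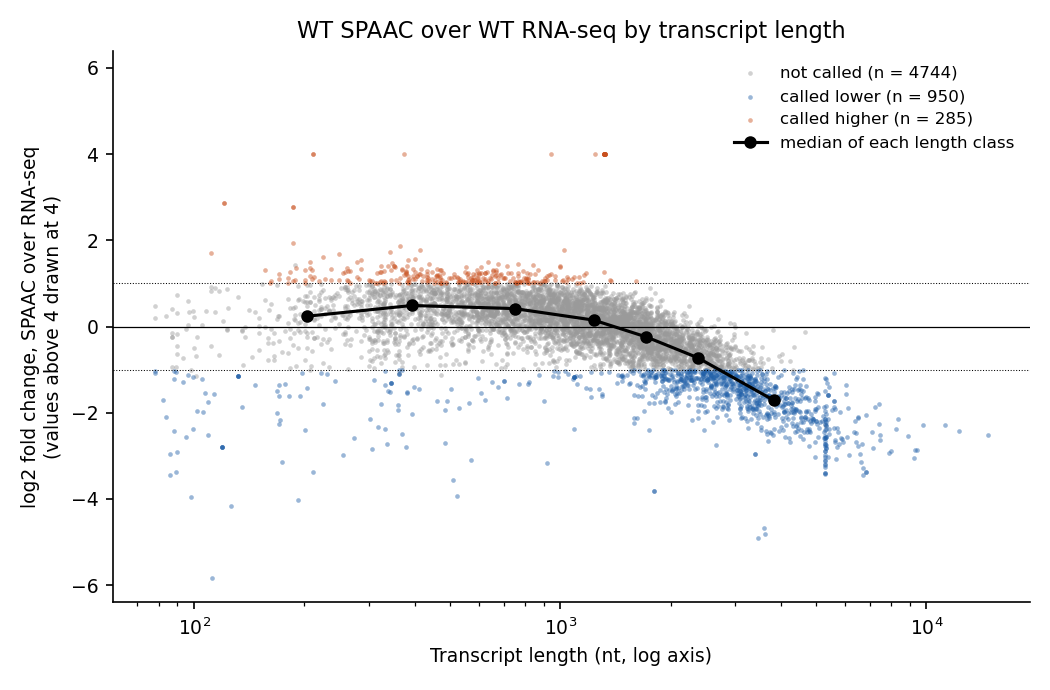
log2 fold change of SPAAC over RNA-seq against transcript length (log axis) for the 5979 transcripts tested, with called transcripts in colour and the median of each of 7 length classes as black points at the class's median length. The median is 0.24 for the shortest class, up to 300 nt, and the medians then run from 0.49 for transcripts of over 300 and up to 500 nt to -1.71 for those over 3000 nt, and values above 4 are drawn at 4.

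Within 4 complexes some short subunits rose and some long ones fell. Called lower were 16.7% of RNA polymerase II, 24% of Mediator, 6.67% of vacuolar proton pump and 6.06% of proteasome genes. The share over all transcripts was 15.9%. In the same order 16.7%, 12%, 20% and 15.2% were called higher, beside 4.77% of all transcripts. In RNA polymerase II, RPB9 and RPO26, small subunits, were higher and RPO21 and RPB2, which form the catalytic centre, were lower. RPB9 was at 46.9, 48.2 and 49.5 CPM in RNA-seq and 118, 123 and 121 in SPAAC (1.32, SE 0.03), and RPB2 at 336, 333 and 329 and 61.2, 58.2 and 59.4 (-2.48, SE 0.04). RPO26 rose by 1.31 and RPO21 (chosen after its values were seen) stood at -2.07. The other 8 of the 12 subunits were not called. In the vacuolar proton pump VMA4, VMA7 and VMA10 of 15 genes were higher and VMA1, the catalytic subunit, lower. VMA4 went from 536, 533 and 560.0 to 1217, 1169 and 1154 CPM (1.12) and VMA1 from 946, 941 and 916 to 354, 357 and 346 (-1.41).

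In the proteasome 5 of 33 genes were higher and 2 lower. PRE6, a subunit of the core particle, was at 194, 199 and 205 CPM in RNA-seq and 459, 452 and 433 in SPAAC (1.17, SE 0.04). PRE2, which carries a catalytic site, rose by 1.04. RPN2, a large scaffold of the regulatory particle, was at 476, 465 and 482 and 116, 112 and 116 CPM (-2.05, SE 0.04). In Mediator, which links transcription factors to the polymerase, 3 of 25 genes were higher and 6 lower, with MED7 at 1.26, NUT1 at -1.41 and SSN2 at -1.97. Of these 4 lists 0 members were called in either direction by edgeR with the length trend removed, and RPO21, VMA1, NUT1 and SSN2 turned to 0.27, 0.05, 0.15 and 0.01.

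**Figure D4:**
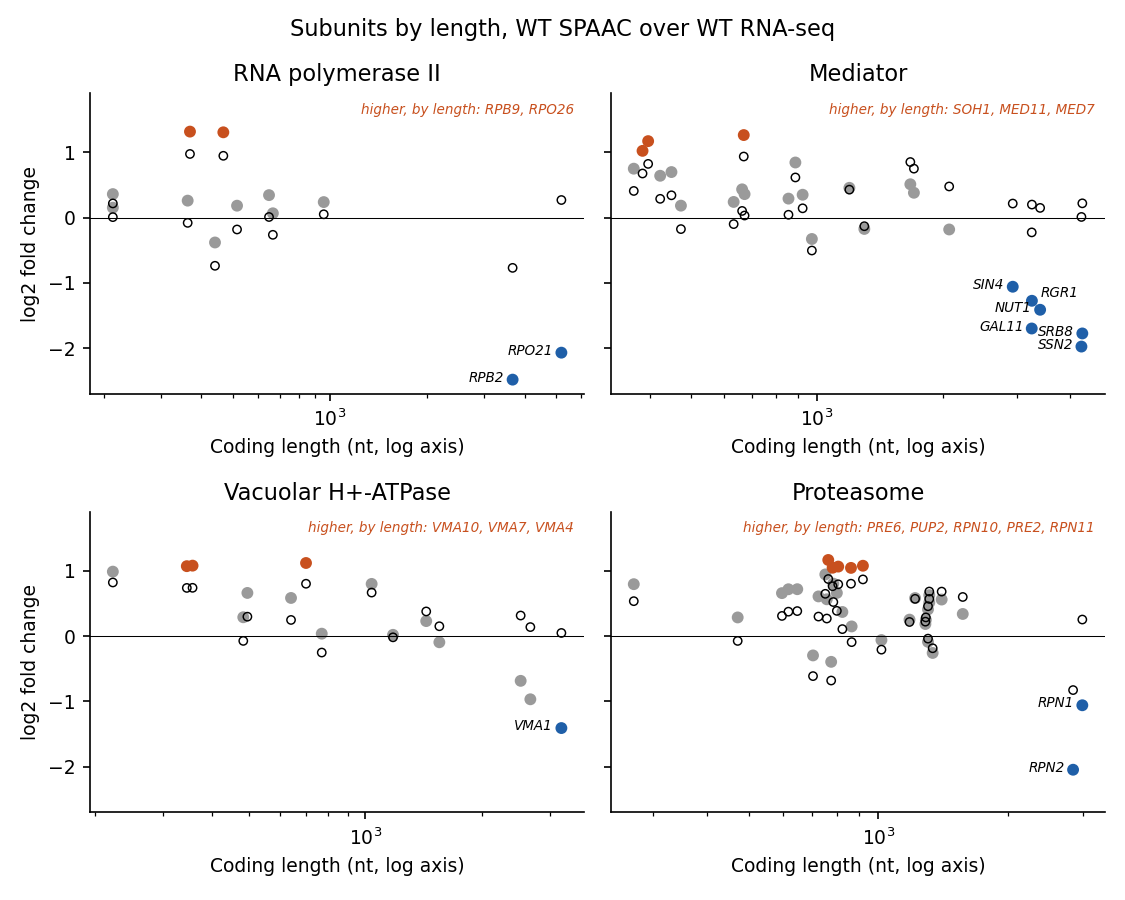
log2 fold change of SPAAC over RNA-seq against coding length (log axis) for the subunits of RNA polymerase II, Mediator, the vacuolar proton pump and the proteasome. Filled points are the values as fitted, orange where called higher (named in the top right corner) and blue where called lower (named beside the point), and open circles are the values with the length trend removed. Subunits at the right, such as RPB2 at -2.48 and RPN2 at -2.05, lie below 0 as fitted and within 1 of 0 once the trend is removed.

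Not every loss followed length. With at least 10 mean CPM and 50% of 31-mers their own, 30 transcripts of up to 1500 nt were called lower, 26 of them coding, and 26 of the 30 stayed lower with the length trend removed. PSA1, which makes the GDP-mannose used for mannoproteins (1086 nt, chrIV:355674-356759, minus strand), was at 2270.1, 2250.4 and 2224 CPM in RNA-seq and 968, 945 and 970.3 in SPAAC (-1.23, SE 0.02, adjusted p = 3.8e-15). ECM33, a lipid-anchored cell surface protein, was at 1360.1, 1369 and 1316 and 646, 627 and 631 CPM (-1.09, SE 0.03). Both separated the assays in every library, and with the length trend removed they stood at -1.33 and -1.05. Scaled by library totals they were lower as well, at -1.54 and -1.4.

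HAC1, the transcription factor of the unfolded protein response, whose mRNA is held unspliced in the cytoplasm of unstressed cells, was lower too. It was chosen, with KAR2, AUR1, YPD1, MRH1 and YNL143C, after its values were seen. HAC1 (717 nt) was at 474, 454 and 464 CPM in RNA-seq and 151, 149 and 143 in SPAAC (-1.65, SE 0.04, -1.96 with the trend removed). KAR2, the endoplasmic reticulum chaperone that is a target of HAC1, was at 703, 720.3 and 719 and 895, 911 and 894 CPM and was not called (0.33, SE 0.03), although it was among the 29 of 1230 transcripts over 2000 nt, by the same filters, that lay above 0. AUR1, an enzyme of sphingolipid synthesis, went from 171, 173 and 169 to 62.8, 62.7 and 64.2 CPM (-1.44) and YPD1, the phosphorelay protein of osmosensing, from 66.0, 64.6 and 58.7 to 22.5, 22.8 and 23.3 CPM (-1.45). MRH1, a membrane protein, stood at -1.03.

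Among uncharacterized genes YJR115W had the largest loss of any named mRNA, at 332, 391 and 155 CPM in RNA-seq and 21.2, 26.7 and 26.4 in SPAAC (-3.55, SE 0.26). Its RNA-seq libraries were spread widely, and the lowest was still above every SPAAC library. YNL143C was at 229, 261 and 189.7 and 47.6, 61.8 and 56.0 CPM (-2.04, SE 0.10). Both stayed lower with the length trend removed (-3.92 and -2.39).

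Several noncoding RNAs were lower. SCR1, the RNA of the signal recognition particle, had the largest loss among the transcripts with at least 10 mean CPM and 50% of 31-mers their own, at 48.1, 38.8 and 52.9 CPM in RNA-seq and 2.57, 4.03 and 2.53 in SPAAC (-3.94, SE 0.15, adjusted p = 3.5e-12, 15.3-fold). TLC1, the telomerase RNA, was at 153, 149.7 and 148 and 47.0, 49.4 and 51.1 CPM (-1.61, SE 0.03). The groups did not overlap for either, and the length trend left both lower, at -4.30 and -1.56. The list of other noncoding RNAs held 5 lower (31.25%, beside 15.9% of all transcripts) and 1 higher of 16, the latter with none of its 31-mers its own. Mature snoRNAs and SCR1 carry no polyA tail, and the input of the standard RNA-seq is not stated, so a difference in polyA selection and a difference in capture cannot be told apart for them. SPAAC and NADcapPro are described with the same polyA input. Of 76 snoRNAs and snRNAs tested against NADcapPro, 41 were lower and 3 higher in SPAAC, with a median of -1.28. Over all transcripts 13.3% were lower in that comparison. The cause was not tested.

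Of 71 snoRNAs tested 35 were lower and 2 higher, beside 15.9% lower and 4.77% higher over all transcripts. SNR63 was at 20.7, 21.7 and 18.8 CPM in RNA-seq and 2.50, 2.61 and 2.63 in SPAAC (-2.98, SE 0.11), and SNR44, which lies inside the intron of RPS22B, at 16.8, 18.2 and 20.7 and 2.23, 1.69 and 1.53 (-3.37, SE 0.14). SNR128 was at 6.53, 8.11 and 7.59 and 0.411, 0.576 and 0.26 CPM (-4.17, SE 0.22) and SNR66 at 3.16, 4.48 and 3.00 and 0.343, 0.339 and 0.292 (-3.44, SE 0.27). Every SPAAC value of these 4 was at 2.63 CPM or less, below every RNA-seq value. SNR8, a box H/ACA snoRNA, went the other way, from 5.98, 4.78 and 5.10 to 12.4, 14.6 and 13.2 CPM (1.37, SE 0.11), and SNR30, an H/ACA RNA required for rRNA processing, was at 32.0, 28.9 and 28.3 and 49.6, 54.5 and 51.0 CPM without reaching the fold threshold (0.81, SE 0.05). SNR128, SNR66, SNR8 and SNR30 were chosen after their values were seen.

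The C and D box letters shown above, TGATGA within the first 20 bases and CTGA within the last 20 of the transcript strand, occur in 36 of 76 snoRNAs and in 5 of the 6022 other transcripts (0.083%). Of the 32 tested snoRNAs with the letters 21 were lower and 0 higher, 2 lay above 0, and the median was -1.55. Of the 39 without them 14 were lower and 2 higher, 13 lay above 0, and the median was -0.43. The letters were sought as exact matches, so the 39 can also hold box C/D snoRNAs whose boxes differ from them. By position, 49 snoRNAs stood alone, 14 lay within 500 nt of another snoRNA on the same strand and 8 lay in an intron. Of these 18, 10 and 7 were lower, 15, 0 and 0 lay above 0, and the medians were -0.63, -1.84 and -2.27. Position went together with the letters. In the same order, 8 of 16, 8 of 11 and 5 of 5 with the letters were lower, with medians of -1.07, -1.98 and -1.97. Without the letters 10 of 33, 2 of 3 and 2 of 3 were lower, with medians of -0.30, -1.21 and -2.59. Of those above 0, 13 were alone and without the letters. Position and letters were not tested apart. The grouping by position was made after the values were seen, and the RNA-seq levels were low in each position group, with medians of 3.86, 2.13 and 2.61 CPM.

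**Figure D5:**
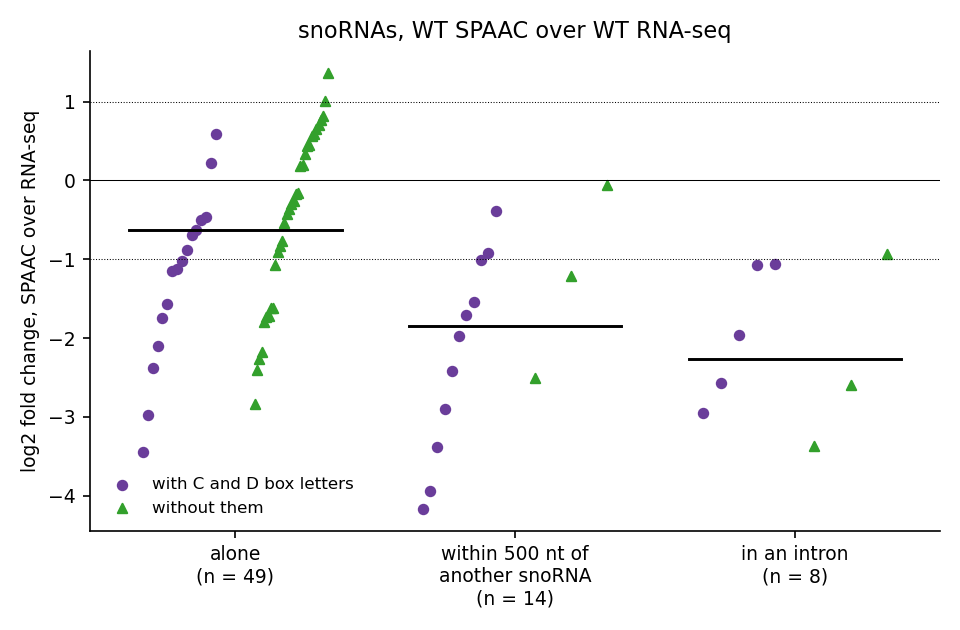
log2 fold change of SPAAC over RNA-seq for 71 snoRNAs by position in the genome, in ascending order within each group, with purple circles for those with the C and D box letters and green triangles for those without. Black lines mark the group medians, -0.63, -1.84 and -2.27, and the dotted lines mark a 2-fold change. No snoRNA of the clustered or intronic groups lies above 0.

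Retrotransposon transcripts gave 15 higher and 44 lower calls of 64 tested, but all 64 had under 50% of their 31-mers to themselves, so their values are uncertain. They are not described one by one.

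Genes of cap removal and of NAD metabolism were examined because the assay reads the cap. Of 21 genes of decapping and NAD cap removal 1 was higher (4.76%) and 4 were lower (19.0%), close to the 4.77% and 15.9% of all transcripts, with a median of 0.22. LSM6, a subunit of the Lsm ring that promotes decapping, was at 63.6, 65.4 and 68.7 CPM in RNA-seq and 165, 171 and 173 in SPAAC (1.36, SE 0.04). XRN1 was at 430.0, 421 and 418 and 91.2, 89.8 and 94.6 CPM (-2.20, SE 0.04), and RAT1, its nuclear counterpart, at 153, 149.6 and 158 and 70.3, 67.0 and 71.2 (-1.14). DCP2, the m7G decapping enzyme, stood at -1.03 and DHH1, a helicase that activates decapping, at -1.13. With the length trend removed LSM6 (1.11) was the member still called, XRN1 stood at -0.08, and RAT1 (0.19) and DCP2 (0.24) lay above 0. Of 20 genes of NAD synthesis and salvage 0 were called in either direction by edgeR or DESeq2, with a median of 0.10 and values from -0.66 to 0.53, while 10 lay above 0 and 4 below 0 at an unadjusted p under 0.05. Over all 5979 transcripts 5130 had such a p in either direction. Of 20 amino acid permease genes 2 were lower, with HIP1 at -1.18, and of 18 hexose transporter genes 2 were lower, and neither list had a higher member. These 10% and 11.1% lie below the 15.9% of all transcripts called lower.

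The same SPAAC libraries were tested against NADcapPro, where m7G caps were removed first. The 2 comparisons share the SPAAC libraries, so their values are given side by side, and the CPM were normalised anew within these 6 libraries, so the SPAAC values differ from those above. Of 6017 transcripts 680 (11.3%) were higher in SPAAC than in NADcapPro and 802 (13.3%) were lower. Of the 285 transcripts higher than in RNA-seq, 128 were also higher and 18 lower in SPAAC than in NADcapPro (median 0.88). Of the lower ones, 946 were tested and 332 were lower and 11 higher (median -0.74), beside a median of -0.01 over all transcripts. RPS20 was at 1011, 1053 and 998 CPM in NADcapPro and 8788, 8569 and 8459 in SPAAC, a log2 fold change of 3.08, and YDR524C-B at 446, 481 and 478 and 8136, 8421 and 8086 CPM, a change of 4.13.

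CWP2 (2.82), ENO2 (2.87), KTI11 (2.78) and TDH3 (2.15) were likewise higher with the m7G caps left in place. Of the ribosomal protein genes 30 of 57 small subunit and 41 of 81 large subunit genes were higher in SPAAC than in NADcapPro, and 6 of 11 histone genes were. ATP18, a small ATP synthase subunit (-0.39), SNU13 (0.16) and SWS2 (0.21), all higher than in RNA-seq, were not called against NADcapPro. YNL143C, lower than in RNA-seq, was lower still against NADcapPro, at 52.7, 68.4 and 62.0 CPM in SPAAC and 3845, 4216 and 3673 in NADcapPro (-6.0, SE 0.07), and YPD1 (-3.01) and SNR128 (-4.24) fell in both. HAC1 was not called (0.90), and DHH1 was higher in SPAAC than in NADcapPro (1.36). The median log2 fold change of the 527 transcripts over 3000 nt was -0.71 here, against -1.71 in the comparison with RNA-seq.

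The comparison was repeated in *xrn1-H41A* cells with 3 SPAAC and 3 RNA-seq libraries that share none with WT. Of 5968 transcripts 262 (4.39%) were higher and 826 (13.8%) lower. Of 5944 tested in both strains, 192 were higher in both, which is 68.8% of the 279 WT calls and 74.7% of the 257 mutant calls. The lower calls shared 723 transcripts, 76.5% of 945 and 88.4% of 818, and 0 transcripts were called in opposite directions. All 279 and all 945 WT calls had the same sign in the mutant, with medians of 1.09 and -1.37. RPS20 was at 1672, 1780.1 and 1676 CPM in mutant RNA-seq and 5971, 5647 and 6055 in mutant SPAAC (1.79), and ACC1 at 713, 690.0 and 699.7 and 80.5, 85.6 and 86.8 (-3.06). For both genes the mutant SPAAC libraries lay apart from the RNA-seq libraries as in WT. MFA1 (1.43), CCW12 (1.69), HAC1 (-1.01) and SCR1 (-3.52) were called in the mutant as well, while PSA1 (-0.87), ECM33 (-0.65) and ATP1 (-0.64) were below the fold threshold there. Above 300 nt the length classes followed the same order, with 441 of 527 transcripts over 3000 nt lower and a median of -1.56.

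Whether the SPAAC difference itself depended on the strain was tested as an interaction over the 12 libraries. Of 6010 transcripts 6 (0.0998%) had a higher and 34 (0.566%) a lower SPAAC over RNA-seq ratio in *xrn1-H41A* than in WT by at least 2-fold. Without the fold threshold 1416 passed the same adjusted p. Of the 34, 14 are uncharacterized and 5 had under 50% of their 31-mers to themselves, as did 2 of the 6.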

How the data were processed

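RNA of WT and *xrn1-H41A* yeast was sequenced as standard RNA-seq, SPAAC and NADcapPro. The authors trimmed reads with fastp 0.23.2, removed rRNA reads with hisat2 and deposited estimated counts from kallisto 0.48.0 on RefSeq transcripts of R64, rounded to whole numbers. The 6106 transcripts carry their length and effective length, and 6098 were found in the reference used here. TPM was recomputed from counts and effective lengths, and the deposited TPM was not used. The table also holds 2 libraries that were not matched to a sample and were not used. Counting is not stated to use strand, and reads carry no molecular identifiers, so floors of 3 counts cover counting error only.

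Counts were tested in R 4.3.3 with edgeR 4.0.16 (TMM, filterByExpr, quasi-likelihood F test) on the 6 libraries of each comparison and on 12 for the interaction. A call needed a change of 2-fold or more with an adjusted p not above 0.01, and SEs were derived from the F statistic. The length trend was removed by lowess (span 0.3) per library. The fits were tested on simulated data. Shared sequence was measured as the percentage of 31-mers that occur in no other transcript, taking kallisto's default word size. Tables were made in Python 3.11.15 with pandas 2.3.3 and NumPy 2.4.6.

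The comparison and the 37 gene lists (1154 genes in the table, 3 not found) were chosen with earlier results of these data known. Named transcripts had a mean of at least 10 CPM over the 6 libraries and at least 50% of 31-mers their own. They were the 10 largest called changes in each direction without overlap, the 6 most abundant calls in each direction, and, per list, the most abundant call in each direction and, where 10% or more were called, the largest, with deleted and mating type genes and the called genes of the decapping list. A gene that met this rule is not reported here. A further 21 were added after their values were seen and are said to be so where they appear, as were RPL41B, VMA7 and VMA10. Alternatives were DESeq2 1.42.0 (Wald, apeglm 1.24.0, size factors), library totals, other filters, glmTreat, an adjusted p of at most 0.05, all 18 libraries, a replicate block, length and GC trends, and each replicate left out.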

Additional observations from a re-analysis of the deposited data

Results flagged for a closer look

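The SPAAC over RNA-seq ratio differed between the strains, by a test of the difference itself (edgeR interaction, 12 libraries), for 6 transcripts that were higher in *xrn1-H41A* and 34 that were lower. At an unadjusted p under 0.05 there were 2730. DESeq2 gave 14 and 26. Among the named transcripts 4 had such a difference, all chosen after their values were seen, and no cause was tested.

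SNZ1 and SNO1, neighbours that act in vitamin B6 synthesis, had interactions of 1.18 (SE 0.06, adjusted p = 5.0e-10) and 1.13 (SE 0.14, adjusted p = 1.1e-05) on the log2 scale. SNZ1 stood at -0.85 in WT and 0.41 in the mutant, and SNO1 at -1.40 and -0.19. SER3, a dehydrogenase of serine synthesis, had an interaction of -1.32 (SE 0.05, adjusted p = 6.2e-12), with 0.10 in WT and -1.14 in the mutant. It overlaps the noncoding SRG1 on the same strand. YRA1, an mRNA export factor with an intron, had an interaction of -1.04 (SE 0.05, adjusted p = 1.7e-10), with -0.12 in WT and -1.07 in the mutant. Levels of SNZ1 and SNO1 also differed between the strains, with SPAAC means of 126 and 18.6 CPM in the mutant and 16.5 and 4.74 in WT. For SER3 and YRA1 these means were 146 and 332 in the mutant and 188 and 273 in WT. The mutant values were normalised with mutant RNA-seq and the WT values with WT NADcapPro.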

How the results depend on the processing

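Depth was not the main limit at the levels described, since 3 counts correspond to 0.23 CPM or less, but snoRNAs at a few CPM carry SEs of up to 0.27 among those named. Counts of calls over all transcripts moved by over 1.5 times as follows, and kept within that under the other alternatives run. WT SPAAC over RNA-seq gave 71 higher by library totals, 157 by glmTreat, 142 with the length trend removed, 140 with length and GC trends removed and 141 with replicate block and length trend removed, and 207, 210 and 215 lower with the last 3. Against NADcapPro library totals gave 196 higher and 1996 lower. In *xrn1-H41A* there were 46 higher by totals, 132 by glmTreat, 168 with all 18 libraries, and 146, 146 and 149 with the length settings, and 1417 lower by totals and 240, 234 and 241 with the length settings. The interaction gave 11 higher with DESeq2's size factors, 14 by DESeq2, 11 with apeglm, 11 at an adjusted p of at most 0.05 and 0 by glmTreat, and 19 lower with apeglm, 2 by glmTreat and 19 with at least 50% of 31-mers own. Calls shared by the strains were 38 and 1158 by totals and 82 and 132 with the length trend removed. The causes were not tested beyond what each setting changes.

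Leaving out 1 replicate gave 276 to 309 higher and 941 to 953 lower calls in the WT comparison, 674 to 684 and 808 to 816 against NADcapPro, 246 to 279 and 813 to 844 in the mutant, and 186 to 200 and 714 to 734 shared. The interaction was less steady, at 5 to 14 higher and 15 to 33 lower, with moves of over 1.5 times without each WT RNA-seq replicate or *xrn1-H41A* RNA-seq replicate 1 or 3 for the higher and without WT RNA-seq replicate 2 or *xrn1-H41A* RNA-seq replicate 3 for the lower.

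The replicate block left 285 higher and 951 lower. Same-numbered libraries did not deviate together (r = 0.07, -0.05 and -0.02 across transcripts). These r cannot show whether same-numbered samples share a culture. The block changed no call of a named transcript. Of the 118 named, 117 stayed on their side of the threshold by DESeq2, 104 by glmTreat and 95 by library totals, where 20 lost their call and 2 gained one, and 28 of 74 list counts moved by over 1.5 times. With the length trend removed 49 did, 52 lost their call, 3 gained one and 14 changed sign, to the following log2 fold changes with the length trend removed, length and GC trends removed, and replicate block with length trend removed. IRA2 stood at 0.26, 0.27 and 0.26, YEF3 stood at 0.11, 0.10 and 0.11, PDR5 stood at 0.52, 0.53 and 0.52. NUT1 stood at 0.15, 0.24 and 0.15, SSN2 stood at 0.0098, 0.025 and 0.0091, STE6 stood at 0.41, 0.42 and 0.41. ILS1 stood at 0.37, 0.38 and 0.37, SEC3 stood at 0.29, 0.30 and 0.29, POL2 stood at 0.042, 0.048 and 0.042. REA1 stood at 1.56, 1.57 and 1.56, VMA1 stood at 0.048, 0.037 and 0.048, DCP2 stood at 0.24, 0.25 and 0.24. RAT1 stood at 0.19, 0.19 and 0.19, RPO21 stood at 0.27, 0.25 and 0.27. By library totals SER3 changed sign, to -0.22.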
